A study of Mus musculus with 8 samples.

Results

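The 34 genes described here encode the heat shock proteins and chaperonins that fold proteins in the cytosol, with their mitochondrial counterparts, co-chaperones and heat shock transcription factors. They were chosen by name, and a gene was measured where a probe set carried its symbol and no other; where a gene had several, the one with the highest mean was used. Of the 34 genes, 31 had such a probe set and 30 were high enough to test, among 12393 genes with a probe set and 8003 tested in all. Hsp90ab1, Ptges3 and Hsf1 had no such probe set and were not analysed here. Hsf2, a heat shock transcription factor, ran from 4.59 to 4.98 on the log2 scale of the arrays, under the limit of 6.87, and was not tested.

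The cells were activated cytotoxic T lymphocytes (CTLs), CD8+ T cells that kill the cells they recognise. They came from 4 OT-1 mice, called A to D, whose CD8+ T cells carry a transgenic receptor for a peptide of ovalbumin (OVA). Cells of each mouse were split between ID8 targets, a mouse ovarian cancer line, that overexpressed PD-L1 and ID8 targets depleted of it. PD-L1 binds PD-1, an inhibitory receptor of T cells. Both kinds of target were loaded with OVA peptide, both co-cultures ran for 4 h at 30 T cells per target cell, and in both the T cells were recovered by magnetic separation before RNA was hybridised to a 3' expression array. The design held no T cells without targets, and the labels used here gave no age or sex of the mice. Each mouse thus gave 2 arrays, 1 per target, and each target had 4.

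HSP70 proteins bind exposed stretches of unfolded chains, J-domain proteins bring them their clients, and nucleotide exchange factors release the chain. HSP90 acts later on signalling proteins such as kinases and steroid receptors, while the ring-shaped chaperonin TRiC folds actin and tubulin. Under proteotoxic stress, heat shock factor 1 binds heat shock elements in promoters and raises the inducible members, and activated T cells are known to express much of this machinery.

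Most chaperone genes differed between the mice, and none passed the test between the targets. Of the 30 tested genes, 25 differed between mice (moderated F test of limma, Benjamini-Hochberg adjusted p under 0.05 over all genes tested), where 29.3% of all tested genes did. The mice fell into different patterns. In mouse A 21 of the 30 genes were higher than the mean of the other mice (18.1% of all genes were), among them all 8 TRiC subunits and all 3 mitochondrial chaperones, and 2 were lower, Cdc37 and Hspb1 (12.7%). In mouse B 5 genes were higher (6.3%), namely the inducible HSP70 genes Hspa1a and Hspa1b, Hspa2, the J-domain gene Dnajb1 and the small heat shock gene Hspb1, and 2 were lower, Cct6a and Hspd1 (2.96%). No gene was higher in mouse C (3.09%) or mouse D (4.56%); 10 were lower in C (5.35%) and 9 in D (4.09%).

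These contrasts set each mouse against the other 3 and share arrays. The differences were small: the highest and lowest mouse differed by a median of 1.21-fold over the 30 genes, against 1.14-fold over all genes tested, and by 1.05-fold for Hspa8 up to 1.61-fold for Hspb1. The mouse took a median of 90.9% of a member's variance, against 73.8% over all genes. The target took 1.36%, against 2.83%. Hspa8, Dnajb6, Hsp90aa1, Bag3 and Cct8 did not pass the F test, with adjusted p in limma of 0.190, 0.144, 0.0924, 0.0549 and 0.0646. Bag3 and Cct8 are nonetheless counted as higher in mouse A, since that contrast is a test of its own. The 2 arrays of a mouse are separate co-cultures of 1 animal's cells that also differ in target, so these p-values compare mice against the spread between co-cultures. With 1 mouse of each letter, an animal and the preparation of its cells cannot be told apart.

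**Figure D1:**
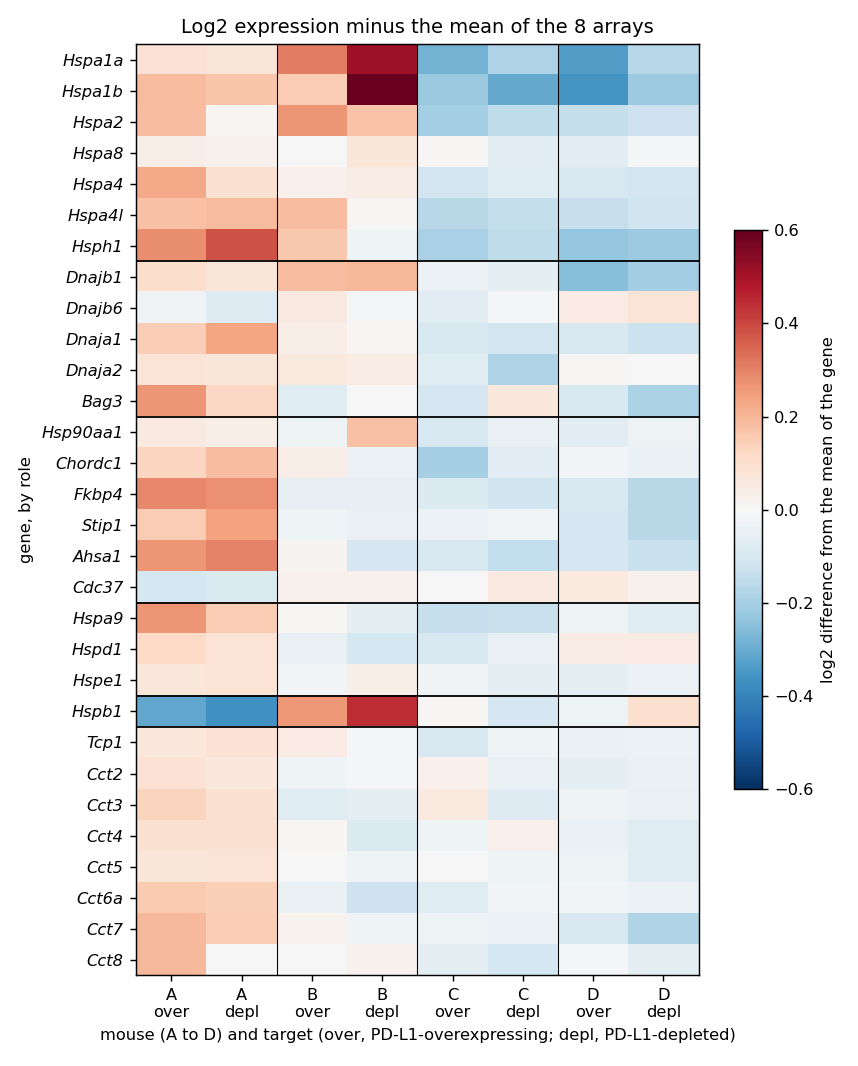
Colours show, for each of the 30 tested genes (rows, by role) on each of the 8 arrays (columns, by mouse and target), the log2 value minus that gene's mean over the 8 arrays. The columns of mouse A are above the gene's mean for all 8 chaperonin subunits and for the HSP90 block except Cdc37, while the columns of mouse B stand out for Hspa1a, Hspa1b and Hspb1.

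Hspa1a and Hspa1b encode the stress-inducible HSP70 and are near-identical neighbouring copies. RefSeq (GRCm38.p6) puts both on the minus strand of chromosome 17 with starts 12918 bases apart. The 250 bases before the start lie at chr17:34972157-34972406 for Hspa1a and chr17:34959239-34959488 for Hspa1b, and the copies differ at 3 of the 250 positions (98.8% identical). They are shown because the pair led the difference of mouse B. Capitals mark the single match to 2 facing GAA units, in the form GAANNTTC or TTCNNGAA. This short form was in 12.8% of all promoters searched, so a match alone does not mark a heat shock element.
Hspa1a: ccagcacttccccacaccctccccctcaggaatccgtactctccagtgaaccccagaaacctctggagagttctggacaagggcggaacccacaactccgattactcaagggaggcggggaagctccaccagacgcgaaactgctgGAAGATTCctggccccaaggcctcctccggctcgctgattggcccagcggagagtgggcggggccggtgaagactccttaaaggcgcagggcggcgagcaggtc
Hspa1b: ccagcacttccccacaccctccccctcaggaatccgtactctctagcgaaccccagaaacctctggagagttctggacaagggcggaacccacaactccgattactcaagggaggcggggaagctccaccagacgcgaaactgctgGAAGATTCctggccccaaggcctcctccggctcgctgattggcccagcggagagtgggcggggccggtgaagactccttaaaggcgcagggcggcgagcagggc
The match starts 104 bases before each gene's start. Arrays may read the pair jointly, so values of the copies are uncertain as to which copy they come from.

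With PD-L1-overexpressing targets Hspa1a stood at 12.22, 12.44, 11.85 and 11.80 in mice A, B, C and D, and with PD-L1-depleted targets at 12.20, 12.64, 11.94 and 11.96 (12.07 ± 0.31 and 12.19 ± 0.32, mean and SD, n = 4). Both arrays of mouse B lay above all 6 others, the arrays of A came next, and those of C and D were lowest and overlapped. Between the targets the values overlapped widely. Mouse B was higher than the other mice by 0.54 (SE 0.040, 1.46-fold, limma adjusted p = 6.3e-05), mice C and D were lower by 0.31 and 0.34 (limma adjusted p = 0.00187 and 0.00122), and A, at 0.11 above the others, did not pass (adjusted p = 0.0747 in limma).

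Values of Hspa1b in mice A, B, C and D were 12.49, 12.45, 12.08 and 11.94 on the arrays of overexpressing targets and 12.47, 12.89, 11.99 and 12.08 on those of depleted targets (means 12.24 ± 0.27 and 12.36 ± 0.41, SD, n = 4). The highest array was the depleted co-culture of mouse B; its other array lay beside those of A, and C and D were lowest. Hspa1b was higher in mouse B by 0.50 (SE 0.081, 1.41-fold, limma adjusted p = 0.00677) and lower in both C (0.35) and D (0.38). With robust variances in limma the calls of Hspa1b in B, C and D were all lost. Mouse A stood 0.24 above the others with an adjusted p of 0.0533 in limma, just short of the threshold. The 3 probe sets of Hspa1b put mouse B higher by 0.48, 0.49 and 0.50.

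Other HSP70 genes differed in size. Hspa8 encodes the constitutive HSC70 that is present without stress. For Hspa8 the 4 co-cultures with overexpressing targets gave 14.42, 14.39, 14.40 and 14.32 in the order A to D, and those with depleted targets gave 14.42, 14.46, 14.33 and 14.39 (means 14.38 ± 0.04 and 14.40 ± 0.06, SD, n = 4). All 8 arrays lay within a narrow band on this probe set, the brightest of 4, and the mice overlapped. A dimmer probe set of Hspa8 ran from 10.06 to 10.76, with -0.43 in C and 0.24 in B, and another from 12.43 to 13.03, with 0.25 in B and -0.18 in D. Hspa2, an HSP70 best known from the testis, was low on the arrays at 7.32 to 7.79; mouse B was higher by 0.29 (SE 0.070, 1.22-fold, limma adjusted p = 0.0343), but 1 array of A lay between the arrays of B. That call was lost with array weights, without mouse C (0.24) and without mouse D (0.26).

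The HSP110 proteins are relatives of HSP70 that act as its nucleotide exchange factors. On the brightest probe set of each, all 3 of their genes were higher in mouse A. Hsph1 encodes the inducible HSP110. The 100 bases before an Hsph1 start, chr5:149636337-149636436 on the minus strand, are shown for the facing pair of units, in capitals, that begins 33 bases before the start.
Hsph1: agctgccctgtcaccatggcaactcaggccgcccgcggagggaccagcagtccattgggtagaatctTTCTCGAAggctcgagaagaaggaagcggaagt
With PD-L1-overexpressing targets Hsph1 stood at 11.40, 11.28, 10.92 and 10.88 in mice A, B, C and D, and with PD-L1-depleted targets at 11.50, 11.09, 10.96 and 10.90 (11.12 ± 0.25 and 11.11 ± 0.27, mean and SD, n = 4). Both arrays of A were highest, both of B came next, and C and D were lowest, with no overlap between these levels. Hsph1 was higher in A by 0.44 (SE 0.051, 1.36-fold, limma adjusted p = 0.000294) and lower in both C (0.23) and D (0.30). Hspa4l was higher in A by 0.25 (SE 0.051, limma adjusted p = 0.00647) and Hspa4 by 0.21 (SE 0.037, limma adjusted p = 0.00269). For Hspa4 both arrays of A were above the rest, while for Hspa4l 1 array of B lay level with them. Dimmer probe sets of Hspa4 gave 0.062 and -0.017 in A, and -0.24 and -0.11 in B. The Hspa4 call in A was lost when its probe sets were averaged (0.086).

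Among the co-chaperones of HSP70, Dnajb1 encodes the inducible HSP40 that hands clients to HSP70. Values of Dnajb1 in mice A, B, C and D were 11.67, 11.75, 11.53 and 11.31 on the arrays of overexpressing targets and 11.64, 11.76, 11.51 and 11.35 on those of depleted targets (means 11.57 ± 0.19 and 11.57 ± 0.18, SD, n = 4). The mice formed a ladder without overlap, with B on top, then A, C and D. Dnajb1 was higher in B by 0.26 (SE 0.031, 1.19-fold, limma adjusted p = 0.00123), higher in A by 0.12 (adjusted p = 0.0176) and lower in D by 0.31 (adjusted p = 0.000411), all by limma. The call in A was lost without the variance trend, the setting in which limma's prior variance depends on a gene's level. The same call was lost without mouse C and without mouse D, where the difference fell to 0.016. The Dnajb1 difference between targets was 0.00035 (SE 0.026).

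Dnaja1, a J-domain protein of the cytosol with a farnesyl anchor, followed mouse A: it was higher there by 0.26 (SE 0.032, 1.19-fold, limma adjusted p = 0.000413), and both arrays of A exceeded the other 6. Bag3, which links HSP70 to selective autophagy, was also higher in A by 0.26 but with a larger error (SE 0.067, limma adjusted p = 0.0179). Dnaja2 was lower in C by 0.17 (SE 0.038, limma adjusted p = 0.0256), but its other, dimmer probe set was 0.14 above the other mice in C. The Dnaja2 call was lost when the probe sets were averaged (-0.019), after quantile normalization, without the variance trend and without mouse A. Dnajb6, a suppressor of protein aggregation, passed in no mouse and ran only from 11.59 to 11.75 over the 8 arrays on its brightest probe set. Dimmer ones varied more, by 0.19 in A and -0.27 in D on one and by -0.18 in A and 0.16 in B on another, and without mouse B Dnajb6 was higher in D.

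Hspb1 encodes HSP27, a small heat shock protein that holds unfolded chains without ATP. It went the opposite way in the 2 mice that stood apart. For Hspb1 the 4 co-cultures with overexpressing targets gave 10.95, 11.52, 11.27 and 11.23 in the order A to D, and those with depleted targets gave 10.90, 11.71, 11.16 and 11.36 (means 11.25 ± 0.23 and 11.28 ± 0.34, SD, n = 4). Both arrays of A were the lowest of the 8 and both of B the highest, with C and D between them. Hspb1 was lower in A by 1.37-fold (log2 difference -0.45, SE 0.055, limma adjusted p = 0.000374) and higher in B by 0.47 (SE 0.055, 1.38-fold, limma adjusted p = 0.00114). Its other probe set gave -0.45 in A and 0.56 in B. The 150 bases before its start, chr5:135887769-135887918 on the plus strand, are shown because they held 2 separate facing pairs of units, in capitals.
Hspb1: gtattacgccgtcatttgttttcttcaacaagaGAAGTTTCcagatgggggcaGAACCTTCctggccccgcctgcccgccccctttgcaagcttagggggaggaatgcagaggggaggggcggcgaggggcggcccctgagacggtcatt

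HSP90 and its co-chaperones gave 4 of 6 tested genes higher in mouse A and 1 lower, with none called in B. Hsp90aa1 encodes the inducible form of HSP90. With PD-L1-overexpressing targets Hsp90aa1 stood at 13.40, 13.31, 13.25 and 13.28 in mice A, B, C and D, and with PD-L1-depleted targets at 13.38, 13.52, 13.30 and 13.31 (13.31 ± 0.06 and 13.38 ± 0.10, mean and SD, n = 4). On this probe set, the brightest of 3, the highest array was again the depleted co-culture of mouse B, and the mice overlapped. No contrast of a mouse passed for Hsp90aa1 on it. A dimmer probe set gave 0.17 in A and -0.23 in C, with both arrays of C (12.97 and 12.96) below the rest. Another gave 0.095 in A and -0.094 in C.

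Fkbp4 encodes FKBP52, an immunophilin that works with HSP90 on steroid receptors. Values of Fkbp4 in mice A, B, C and D were 11.17, 10.83, 10.79 and 10.78 on the arrays of overexpressing targets and 11.15, 10.83, 10.76 and 10.71 on those of depleted targets (means 10.89 ± 0.18 and 10.86 ± 0.20, SD, n = 4). On this probe set, the brighter one, the arrays of A stood apart from the other 6, which lay close together. Fkbp4 was higher in A by 0.37 (SE 0.033, 1.30-fold, limma adjusted p = 5.7e-05). The dimmer probe set of Fkbp4 gave only 0.077 in A. There both arrays of A (8.10 and 8.04) lay below the overexpressing array of C and the depleted array of B (8.14 each). Ahsa1 encodes the activator of the HSP90 ATPase. For Ahsa1 the 4 co-cultures with overexpressing targets gave 11.35, 11.10, 10.99 and 10.98 in the order A to D, and those with depleted targets gave 11.38, 10.99, 10.94 and 10.95 (means 11.11 ± 0.17 and 11.06 ± 0.21, SD, n = 4). Again both arrays of A were above the rest, and the gene was higher in A by 0.38 (SE 0.037, 1.30-fold, limma adjusted p = 0.000104).

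Stip1 encodes HOP, which bridges HSP70 and HSP90, and was higher in A by 0.26 (SE 0.039, 1.20-fold, limma adjusted p = 0.00117) and lower in D by 0.18 (adjusted p = 0.0249 in limma). Chordc1, an HSP90 co-chaperone, was higher in A by 0.21 (SE 0.044, limma adjusted p = 0.00634) and lower in C by 0.18. Cdc37 delivers kinases to HSP90 and did the reverse of these genes. With PD-L1-overexpressing targets Cdc37 stood at 12.63, 12.76, 12.74 and 12.79 in mice A, B, C and D, and with PD-L1-depleted targets at 12.65, 12.76, 12.79 and 12.76 (12.73 ± 0.07 and 12.74 ± 0.06, mean and SD, n = 4). Both arrays of A were the lowest of the 8, and Cdc37 was lower in A by 1.09-fold (log2 difference -0.13, SE 0.025, limma adjusted p = 0.00566). Its second, dimmer probe set differed by 0.074 in the other direction.

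The mitochondrial chaperones were each higher in mouse A, though Hspd1 and Hspe1 lost that call without the variance trend and Hspe1 also without mouse D. Hspa9 encodes mortalin, the HSP70 of the mitochondrial matrix. For Hspa9 the 4 co-cultures with overexpressing targets gave 12.83, 12.57, 12.43 and 12.54 in the order A to D, and those with depleted targets gave 12.72, 12.51, 12.43 and 12.50 (means 12.59 ± 0.17 and 12.54 ± 0.13, SD, n = 4). The arrays of A were the highest 2, those of C the lowest, and B and D overlapped between them. Hspa9 was higher in A by 0.28 (SE 0.028, 1.21-fold, limma adjusted p = 0.000115) and lower in C by 0.18 (adjusted p = 0.00527 in limma).

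Hspd1 and Hspe1 encode HSP60 and HSP10, the barrel and the lid of the mitochondrial chaperonin, and are read in opposite directions from a shared stretch of chromosome 1. The 215 bases between the Hspe1 start and the nearer Hspd1 start, chr1:55087933-55088147, are shown on the plus strand, with the run of alternating heat shock units in capitals.
Hspe1-Hspd1 intergenic: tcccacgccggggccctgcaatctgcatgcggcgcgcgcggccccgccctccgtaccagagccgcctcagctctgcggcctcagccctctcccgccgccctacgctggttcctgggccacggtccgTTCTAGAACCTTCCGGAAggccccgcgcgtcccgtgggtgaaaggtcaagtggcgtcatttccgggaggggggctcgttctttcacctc
With PD-L1-overexpressing targets Hspd1 stood at 13.39, 13.22, 13.17 and 13.31 in mice A, B, C and D, and with PD-L1-depleted targets at 13.35, 13.16, 13.23 and 13.32 (13.27 ± 0.10 and 13.26 ± 0.09, mean and SD, n = 4). Mouse A was highest, D was close behind, and B and C were lowest and overlapped. Hspd1 was higher in A by 0.13 (SE 0.026, 1.10-fold, limma adjusted p = 0.00529) and lower in B by 1.07-fold (log2 difference -0.10, SE 0.026, limma adjusted p = 0.0445). Hspe1 was higher in A by 0.10 (SE 0.023, 1.07-fold, limma adjusted p = 0.0109) and differed by 0.011 in B (adjusted p = 0.811 in limma). The direct contrast of A with B, added after the values were seen, passed for Hspd1 (0.18, limma adjusted p = 0.00498) and not for Hspe1 (0.067, limma adjusted p = 0.126).

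TRiC is built of 8 different subunits in each ring, and all 8 genes (Tcp1, Cct2, Cct3, Cct4, Cct5, Cct6a, Cct7 and Cct8) were higher in mouse A, by 0.099 to 0.23. These are small steps, from 1.07-fold to 1.17-fold, on genes with standard errors of 0.022 to 0.038. Over the 8 subunits the mean was 13.19 and 13.15 on the arrays of A and lay between 12.99 and 13.05 on the 6 others. For Cct8 the arrays of A and B overlapped. Its depleted array in A (12.31) lay below that in B (12.33), and its overexpressing array in A stood at 12.50. Cct7 showed the largest step. Values of Cct7 in mice A, B, C and D were 12.64, 12.47, 12.41 and 12.35 on the arrays of overexpressing targets and 12.59, 12.42, 12.41 and 12.26 on those of depleted targets (means 12.47 ± 0.13 and 12.42 ± 0.13, SD, n = 4). Both arrays of A were highest and both of D lowest, and B and C lay together. Cct7 was higher in A by 0.23 (SE 0.026, limma adjusted p = 0.000256) and lower in D by 0.18 (adjusted p = 0.00334 in limma).

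Cct6a was higher in A by 0.20 (SE 0.029, 1.15-fold, limma adjusted p = 0.000918) and lower in B by 1.08-fold (log2 difference -0.11, limma adjusted p = 0.0443). It was the TRiC gene with the most distance between A and B. The arrays of A stood at 13.10 and 13.09, and the highest of the other 6 at 12.93. The rest of the subunits passed in no mouse but A. For Cct4, 2 further probe sets gave -0.028 and -0.066 in A, and for Cct2 a further one gave -0.082, so these calls depend on the probe set. With all probe sets of a gene averaged, Cct2, Cct4 and Cct8 no longer passed in A, nor did Hspa4 and Cdc37. Without the variance trend, 13 of the 30 genes were higher in A and Tcp1, Cct2, Cct4, Cct5, Cct8, Hspd1, Hspe1 and Dnajb1 were not among them.

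**Figure D2:**
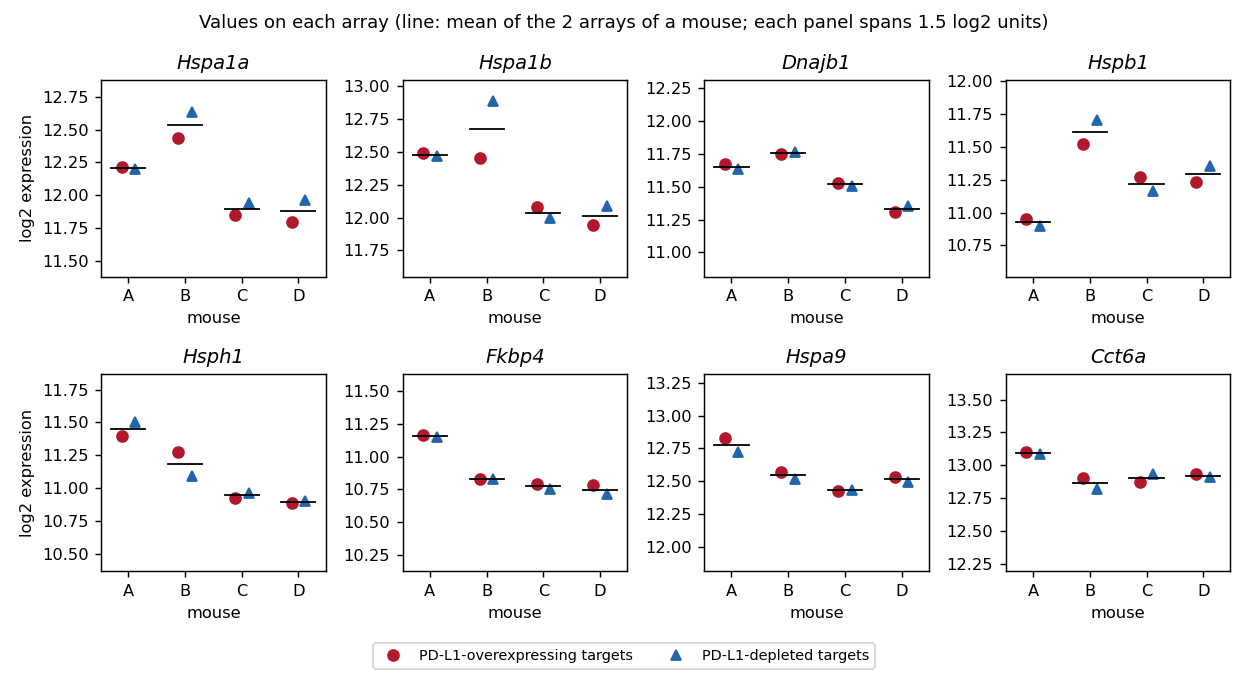
Each panel plots 1 gene's log2 value (vertical axis, 1.5 log2 units in every panel) in mice A to D, with circles for overexpressing targets, triangles for depleted targets and a line at the mean of the 2 arrays. Hspa1a, Hspa1b, Dnajb1 and Hspb1 are highest in mouse B, and Hsph1, Fkbp4, Hspa9 and Cct6a in mouse A.

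The contrast of mouse A with mouse B, added after the values were seen, divided the genes. Of the 30, 13 were higher in A (11.1% of all genes were), among them 6 TRiC subunits, Hspd1, Hspa9, Fkbp4, Ahsa1, Stip1, Hsph1 and Dnaja1. In turn 3 were lower in A, namely Cdc37, Hspa1a and Hspb1 (10.5%). Hspa1a was lower in A than in B by 1.26-fold (log2 difference -0.33, SE 0.049, limma adjusted p = 0.00177), and Hspb1 by 1.61-fold (log2 difference -0.69, SE 0.067, limma adjusted p = 0.000139). Hspa1b, Dnajb1 and Hspa2, 3 of the 5 genes higher in B than in the other mice, did not pass between A and B (limma adjusted p = 0.199, 0.0790 and 0.354).

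**Figure D3:**
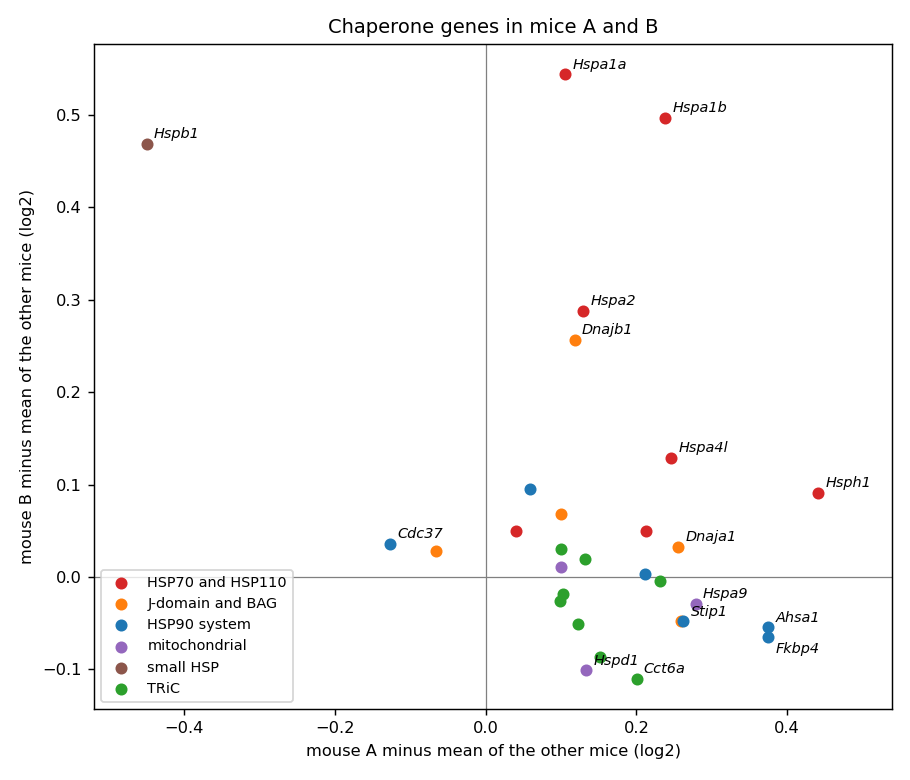
Each point is a tested gene, coloured by role, at its log2 difference of mouse A from the mean of the other mice (horizontal axis) and that of mouse B (vertical axis). Both axes share arrays, so the layout shows each gene's pair of values and not a correlation: Hsph1, Ahsa1 and Fkbp4 lie far right, Hspa1a and Hspa1b at the top, and Hspb1 at the upper left.

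How much rests on mouse A was measured by leaving it out. Among mice B, C and D, 6 of the 30 genes differed (7.2% of all genes did): Dnajb1, Hspa1a, Hspa1b, Hspa2, Hspb1 and Hsph1. None of the 8 TRiC genes, the mitochondrial chaperones or the HSP90 system was among them. With A left out, 9 genes were higher in B (4.64%), the additional ones being Dnaja1, Hspa4 and Hspa4l. The low counts of C and D shrank without A, to 1 gene in C (Hspa1a, 3.04%) and 2 in D (Dnajb1 and Hspa1a, 1.07%). Neither gene that was lower in B passed without A (2.2%) or without D (2.34%), and both lost their calls under median centring and with no filter on low genes.

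The other mice mattered as well. Between the mice 29 genes differed with B left out (44.4%), 24 with C left out (23.5%) and 19 with D left out (20.3%). Genes higher in A numbered 27 without B (26.1%), 19 without C (13.8%) and 13 without D (11.7%). The calls lost without D were those of Bag3, Dnajb1, Hspe1, Tcp1, Cct2, Cct4, Cct5 and Cct8. Without B, 15 genes were lower in C (13.1%) and 18 in D (10.6%), and 2 were higher in D, Dnajb6 and Hspb1 (11.9%). Without C, 14 were lower in D (6.5%). After quantile normalization 3 genes were lower in C in place of 10.

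Counted by arrays, with no test, both arrays of A lay above the 6 others for 19 of the 30 genes (22.3% of all genes), and below them for 2 (13.9%). Both arrays of B lay above the rest for 3 genes, Dnajb1, Hspa1a and Hspb1 (8.28%). Both of C lay below the rest for Chordc1, Dnaja2, Hspa2, Hspa4l and Hspa9, 5 genes (9.93%), and both of D for Cct5, Cct7, Dnajb1, Hsph1 and Stip1, again 5 (6.16%). Of 24 further probe sets of genes called in A, 19 differed in the same direction there, and of 5 of genes called in B, all 5 did. The median difference of the 30 genes from the other mice was 0.13 in A, where the median of all genes was 0.022. In B it was 0.023 against -0.0065, in C -0.086 against -0.018, and in D -0.069 against 0.00088.

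Heat shock elements are runs of the unit GAA in alternating orientation, and the letters were searched in the 250 bases before each start in RefSeq's promoter table. Of the 34 genes, 28 had a promoter there; Hspa8, Hsp90aa1, Hsp90ab1, Hspa9, Hsf1 and Cct4 did not. The 3-unit form, GAANNTTCNNGAA or TTCNNGAANNTTC on either strand, was in 4 of the 36 promoters of these genes (11.1%), those of Hspd1, Hspe1 and Dnajb6, and in 153 of all 32851 promoters (0.466%). These 4 are not separate sites. Hspd1 and Hspe1 share the same bases, chr1:55088059-55088076, and the Dnajb6 promoters overlap and share 1 match, chr5:29735852-29735864. The facing pair GAANNTTC or TTCNNGAA, which every 3-unit match also holds, was in 14 of the 36 promoters (38.9%), belonging to 12 of the 28 genes, and in 12.8% of all promoters. Here too Hspd1 and Hspe1 share bases, as do the promoters of Dnajb6 and those of Hsph1. The longer form of Dnajb6 is shown as the only one outside the Hspe1 and Hspd1 pair, in the 100 bases before a start at chr5:29735798-29735897 on the plus strand.
Dnajb6: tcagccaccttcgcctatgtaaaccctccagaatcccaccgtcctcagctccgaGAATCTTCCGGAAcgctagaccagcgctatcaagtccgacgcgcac
The 12 genes with a facing pair were Cct2, Cct5, Cdc37, Dnaja1, Dnajb6, Fkbp4, Hspa1a, Hspa1b, Hspb1, Hspd1, Hspe1 and Hsph1. They include genes highest in A, genes highest in B and Cdc37, which was lowest in A. A match is a description of letters in this window, and no binding was measured.

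Between the targets no chaperone gene passed. The limma fit, blocked by mouse, gave 0 of 30 genes in either direction and 0% of all 8003 genes, with a smallest adjusted p over all genes of 0.9995. At an unadjusted p under 0.05 there was 1 chaperone gene, Hspa1a (2.85% of all genes). Differences of overexpressing minus depleted targets ran from -0.12 for Hspa1b to 0.067 for Cct8. The median was 0.010, against 0.0033 over all genes, and the median SE was 0.029, against 0.045. By sign alone, 18 of 30 genes had a higher mean with overexpressing targets (53.4% of all genes did).

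For Hspa1a the log2 difference was -0.11 (SE 0.035, 95% interval -0.19 to -0.034, limma adjusted p = 0.9995). In mice A to D the differences were 0.013, -0.20, -0.098 and -0.16, lower in 3 of 4 mice, and without mouse B the difference was -0.083. For Hspa1b the mice gave 0.025, -0.44, 0.085 and -0.14, and without mouse B the difference was -0.012. Thus most of the Hspa1b difference came from 1 mouse. In all 4 mice alike, only Cct7, Dnaja2 and Fkbp4 among the 30 leaned one way (10.5% of all genes did), each with the higher value for overexpressing targets and differences of 0.046, 0.036 and 0.032. Their limma adjusted p was 0.9995.

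**Figure D4:**
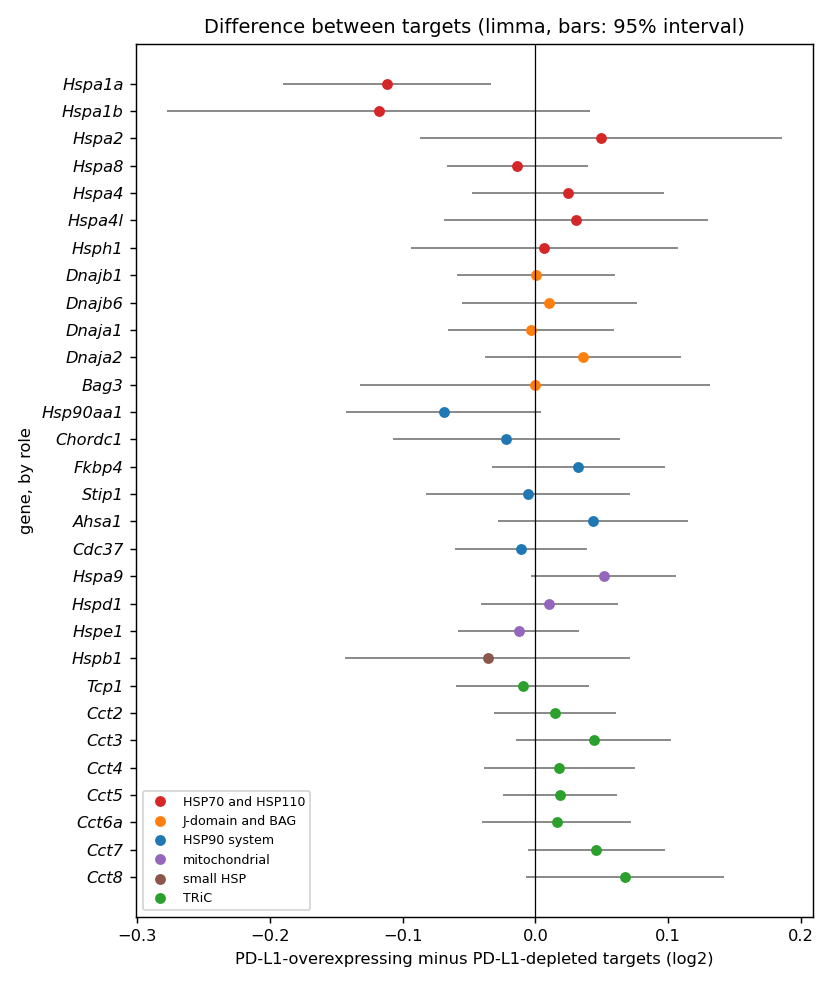
Log2 differences of overexpressing minus depleted targets (horizontal axis) are plotted for each of the 30 genes (rows, coloured by role), as the limma estimate with its 95% interval, not adjusted for the number of genes. The intervals hold 0 except that of Hspa1a, and the estimates run from -0.12 for Hspa1b to 0.067 for Cct8.

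Genes of the targets themselves were also measured. The 10 tested genes of a 17-gene list for ID8 cells (keratins, mesothelial and matrix genes) had a mean that differed between targets by 0.70, 0.55 and 0.56 in mice A, C and D, and by -0.91 in B, where it was lower with overexpressing targets. Over arrays this list ran from 7.94 to 9.01 with overexpressing and from 7.88 to 8.85 with depleted targets. Its genes differed widely in size and some in direction. Upk3b gave 1.67, -2.29, 1.89 and 1.82 in mice A to D, but Cav1 gave 0.023, 0.020, -0.42 and -0.17. Left without mouse B, 176 genes of the whole table passed between targets (2.2%) and 0 of the 30 chaperone genes. With the tumour list as a covariate 3 genes passed, 1 of them Hspa1b (-0.18). The part of tumour RNA in the Hspa1b difference was not tested.

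Other genes of the same systems were counted from lists. Of 34 further genes of the cytosolic HSP70, HSP90 and J-domain systems, 28 were tested and 8 differed between mice (28.6%, against 29.3% of all genes). In A 6 were higher (21.4%, against 18.1% of all genes), among them the J-domain gene Dnaja4 (0.37, SE 0.054, 1.29-fold, limma adjusted p = 0.00105), and 1 was lower (3.57%, against 12.7%), Fkbp5 (log2 difference -0.35, SE 0.031, 1.28-fold, limma adjusted p = 5.6e-05). Fkbp5 encodes FKBP51, the counterpart of FKBP52 on HSP90 and a target of glucocorticoids. On the 8 arrays it stood at 10.96 and 10.91 in A, 11.29 and 11.25 in B, 11.19 and 11.20 in C, and 11.40 and 11.39 in D, overexpressing targets first. Arrays of A were lowest and those of D highest, the reverse of Fkbp4 in A.

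Prefoldin hands nascent actin and tubulin to TRiC. Of 12 prefoldin subunits and TRiC partners, 11 were tested and 3 differed between mice (27.3%, against 29.3% of all genes). Pfdn6 (0.22) and Uri1 (0.27) were higher in A (18.2%, against 18.1% of all genes). Pfdn5 was lower in A (-0.21, SE 0.029, limma adjusted p = 0.000641) and higher in B (0.15, limma adjusted p = 0.0126). Of all genes, 12.7% were lower in A and 6.3% higher in B. The counts lay near the shares of all genes, so they set the partners apart in neither direction. In A, Pfdn5 moved opposite to the 8 TRiC genes. Of 13 mitochondrial protein quality genes, 12 were tested and 5 differed between mice (41.7%, against 29.3% of all genes). In A, 3 were higher (Dnaja3, Lonp1 and Yme1l1) and 3 lower (Afg3l2, Grpel1 and Hscb), 25% each way, against 18.1% and 12.7% of all genes. The protease gene Lonp1 was higher in A by 0.11 (SE 0.028, limma adjusted p = 0.0166), and Hscb, a J-domain gene of iron-sulfur cluster assembly, was lower by 1.18-fold (log2 difference -0.24, SE 0.037, limma adjusted p = 0.00133).

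A list of 19 small heat shock genes and genes tied to heat shock factors had 11 tested and 4 different between mice (36.4%, against 29.3% of all genes). In A 3 were higher (27.3%, against 18.1%), namely Cacybp, Hikeshi and Hspb11. Hikeshi, which carries HSP70 into the nucleus, was higher there by 0.14 (SE 0.036, limma adjusted p = 0.0146). Ier5, an immediate early gene whose product acts on heat shock factor 1, was higher in B by 0.29 (SE 0.038, limma adjusted p = 0.00211); its arrays in B stood at 11.07 and 11.15, and the other 6 between 10.79 and 10.86. In none of the 4 lists did a gene pass between targets with all mice; without mouse B, Vbp1 and Serpinh1 did. Serpinh1, a collagen chaperone, differed between targets by 1.26, -1.47, 1.04 and 1.03 in mice A to D. The mean of the ID8 list had the same signs, and its matrix gene Sparc gave 1.14, -1.57, 1.14 and 1.01. Not every gene of that list did so. Krt8 gave 0.20, -0.48, -0.018 and 0.14, and Cav1 gave 0.023, 0.020, -0.42 and -0.17. The collagen genes Col1a1 and Col1a2, under the limit for testing, were lower with overexpressing targets in all 4 mice. The part of tumour RNA in the Serpinh1 difference was not tested.

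Several values of the whole series moved with the mice. Pairs of arrays correlated at 0.994 to 0.998 over all probe sets. The 6 tested CD8 T cell genes of a list of 7 had means of 12.33 and 12.29 in A and 12.44 to 12.47 on the other arrays. The defining genes Cd3d and Cd8a ran from 13.90 to 14.03 and from 12.48 to 12.79 over the arrays, and both were lower in A (log2 differences -0.10 and -0.17, limma adjusted p = 0.00403 and 0.00317). Cd3g and Cd247 were also lower in A (-0.21 and -0.28). Cd3e and Cd8b1 did not pass there (-0.11 and -0.013, limma adjusted p = 0.125 and 0.739). The 11 immediate early genes had means of 10.86 and 11.01 in B and 10.39 to 10.58 elsewhere. Fos was higher in B by 1.21 and Jun by 1.01 (limma adjusted p = 3.8e-06 and 4.5e-05), the largest differences of the list. Most others were also higher in B, but Junb did not pass (0.11, limma adjusted p = 0.0736). Ier3 was lower in B (-0.15, limma adjusted p = 0.0155). Over a 10-gene list for B cells and MHC class II, the 4 tested genes had means of 11.35 and 11.29 in B, 10.92 and 10.96 in D, and 10.02 to 10.28 in A and C, while Cd79a, Ms4a1 and Pax5 were under the limit for testing. The 4 did not rank the mice alike. H2-Aa had the widest range, with means of 6.77, 10.16, 7.14 and 9.07 in A to D. Ighm was highest in D (11.06), and Cd74 was lowest in C (11.98) and not in A (12.41). The part of these genes in the differences of mouse A, and in those of Hspa1a, Hspa1b and Hspb1 in mouse B, was not tested. Bulk RNA cannot tell a change in RNA per cell from a change in the mix of cells.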

How the data were processed

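Affymetrix arrays of 3' ends were run on T cells of 4 mice, each with both targets. The values that the authors deposited were taken as log2 expression because they span 3.60 to 15.24; how they were summarised and normalised is not given in the sources used here. When sorted, the 8 arrays differed by at most 0.167 at any rank, so a shift shared by most genes could be hidden. The number of arrays limits the precision.

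Of 22690 probe sets, 64 controls, 691 with several symbols and 1555 with none were left out. The probe set with the highest mean stood for each of 12393 genes, and 4390 with a mean under 6.87, the 40th percentile, were not tested, leaving 8003. All values were fitted with limma 3.58.1 in R 4.3.3 (lmFit, eBayes with a trend, two-sided, Benjamini-Hochberg over all genes tested, threshold 0.05), with mouse as a fixed block for the targets and the target as a covariate for the mice. The code was tested on simulated data.

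The series text says that cells of each mouse were divided between the targets, and titles name the mouse, so arrays were paired. Subtracting group means, both arrays of a mouse deviated together across the members, with correlations of 0.86, 0.80, 0.54 and 0.89 in mice A to D. Across all genes the correlations were 0.82, 0.61 and 0.64 in A, C and D. In B it was only 0.16, so the arrays of B barely deviated together there.

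The members and lists were chosen with earlier results of these data known. Named genes were all members and, of each further list, up to 4 tested genes with the smallest F test p and up to 2 with the smallest p between targets; genes of the lists beyond these (Dnaja3, Grpel1, Serpinh1) and the marker genes named were added after their values were seen, as were the contrast of mouse A with mouse B and the choice of printed sequences.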

Additional observations from a re-analysis of the deposited data

Results flagged for a closer look

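In 118 groups of 4 arrays (with each target, the 31 chaperone genes with a probe set, 23 genes of the further lists taken by the rule for named genes, and 5 means over chaperone genes of 1 role), 1 array lay far from the other 3 in 10. For independent groups not picked by their values, about 1 in 20, or 5.9, would be expected. The 23 further genes were picked by small p-values between mice or between targets in these same data. All groups also share the same arrays, so the 10 cannot be read as an excess over 5.9. The measure is the gap from the far array to its nearest neighbour divided by the range of the group. The far array was that of mouse A in 8 of the 10 and of mouse B in 2. With overexpressing targets mouse A was far above for Bag3 (0.9307) and Fkbp4 (0.8818). With depleted targets it was far above for Chordc1 (0.8757), Ahsa1 (0.8854), Dnaja4 (0.9305), Pfdn6 (0.8571) and Uri1 (0.9159), and far below for Hscb (0.8756). Mouse B was far above the rest for Ier5 with both overexpressing (0.8447) and depleted targets (0.9323).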

How the results depend on the processing

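No called value changed sign under any alternative tried, but several alternatives could not change one. Changing the filter or the eBayes settings, or testing every probe set, left the estimate of each gene's brightest probe set as it was. Further probe sets of Cdc37, Dnaja2, Cct2 and Cct4 did differ in sign from the called values, as given above. Of the 359 values of single genes between targets under alternatives that kept all mice, 22 changed sign, none of them called. Without the replicate block, or with mouse as a random replicate block, 0 chaperone genes and 0 of all genes passed between targets, as with the block. The numbers of chaperone genes called moved as follows, and the cause was not tested except where fewer arrays or a stricter threshold set it. At an adjusted p of 0.01, 15 differed between mice (the count of all genes called between mice was 1093), 0 were lower in B, 2 in C and 4 in D. Without the trend in eBayes, 14 differed between mice, 13 were higher in A, and 1, 0, 1 and 4 were lower in A, B, C and D. With the tumour marker mean as a covariate, 1 chaperone gene and 3 of all genes passed between targets, the count of all genes called between mice was 4021, and in D 2 were higher and 16 lower. Array weights gave 0 lower in B and 15 lower in D. Quantile normalization gave 3 lower in C. Averaging a gene's probe sets gave 1 lower in A and 1 lower in B, and testing every probe set gave 0 lower in B and 6 lower in C. Median centring and dropping the filter each gave 0 lower in B. Leaving out each mouse in turn gave 6 to 29 genes between mice (of all genes 576 to 3555), 0 to 176 of all genes between targets, 13 to 27 higher in A, 4 to 9 higher in B, 0 to 2 lower in B, 1 to 15 lower in C, 0 to 2 higher in D and 2 to 18 lower in D. Of the values of single genes called in A under alternatives other than leaving out a mouse, 239 of 253 kept their call and 14 lost it; in B 63 of 76 kept it, in C 84 of 110 and in D 91 of 99. Quantile normalization and median centring shifted an array's median by at most 0.029. With 4 mice, differences between targets near or under their standard errors, 0.029 in the median chaperone gene, could not be told from 0. Larger ones could also fail to pass. Hspa1a, at -0.11 with an SE of 0.035, had a limma adjusted p of 0.9995.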
